A study of Rattus norvegicus with 30 samples.

Results

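Valproate (VPA) exposure was examined in the brains of epileptic GAERS rat pups. The comparison used the 15 libraries labelled GAERS, 7 from VPA-exposed and 8 from non-exposed pups, out of 30 libraries in the series. They were chosen by their strain and exposure labels alone. GAERS (Genetic Absence Epilepsy Rats from Strasbourg) are an inbred strain with spontaneous absence seizures, and both groups compared carry that background. The other 15 libraries come from NEC (Non-Epileptic Controls), the inbred seizure-free strain bred alongside them, again with exposed and non-exposed pups. Total RNA from brain tissue was sequenced. The labels give no dose, route or time of exposure, and no age, sex, litter, brain region or sequencing batch. Nothing states that pups came from separate litters, and the p-values speak only to the spread among these libraries. In whole tissue, fewer cells of a type and less RNA per cell cannot be told apart.

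Valproate is an antiseizure drug with several known actions. It raises brain GABA, the main inhibitory transmitter, dampens sodium and T-type calcium currents, and inhibits class I histone deacetylases, enzymes that remove acetyl groups from histones and so favour gene silencing. Absence seizures arise in loops between cortex and thalamus in which T-type calcium channels sustain rhythmic firing, and valproate is among the drugs that suppress them.

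Genes are given by rat Ensembl identifier. None of the 32586 identifiers could be matched to a symbol with the tables used here, so brain functions and cell types of the changed genes are not described. The tissue label could not be checked against marker genes for the same reason. Changes are described by number, size, direction, expression level and pup, and 4 identifiers are named.

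The libraries held 29799925 to 39913978 counts. Exposed libraries were shallower by 4309902 counts on average (p = 0.0277 by an exact permutation test, two-sided, over 7 and 8 libraries), and the groups overlapped in depth. Of the 32586 genes, 15537 had enough counts to be tested. A pair of pups stood apart from their groups. GAERS control 1 had a median correlation of 0.981 with the other controls (log2 normalized counts across tested genes), against 0.991 to 0.993 for the remaining 7. GAERS VPA 4 had 0.984 with the other exposed pups, against 0.989 to 0.991 for the remaining 6. Results are given with and without these pups.

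Between exposed and control pups, 525 of 15537 tested genes (3.38%) were called different, with 263 higher (1.69%) and 262 lower (1.69%) in exposed pups. Calls here and below have an adjusted p under 0.05 by edgeR's quasi-likelihood test with Benjamini-Hochberg adjustment over all tested genes. The changes were small. The median size of a called gene was 0.32 on the log2 scale, or 1.25-fold, against 0.09 over all tested genes. Called log2 fold changes ran from -1.60 to 3.47. Higher genes had a median of 0.36 and lower genes a median of -0.26, while the median of all tested genes was 0.00339. Changes over 0.5 were found in 114 called genes, 80 higher and 34 lower. Changes over 1 were found in 31, of which 26 were higher, and 30 of the 31 had a mean log2 CPM (CPM, counts relative to the size of their library) under 2. With upper-quartile scaling, which moved the median of all genes by less than 0.1, 295 genes were higher and 225 lower.

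**Figure D1:**
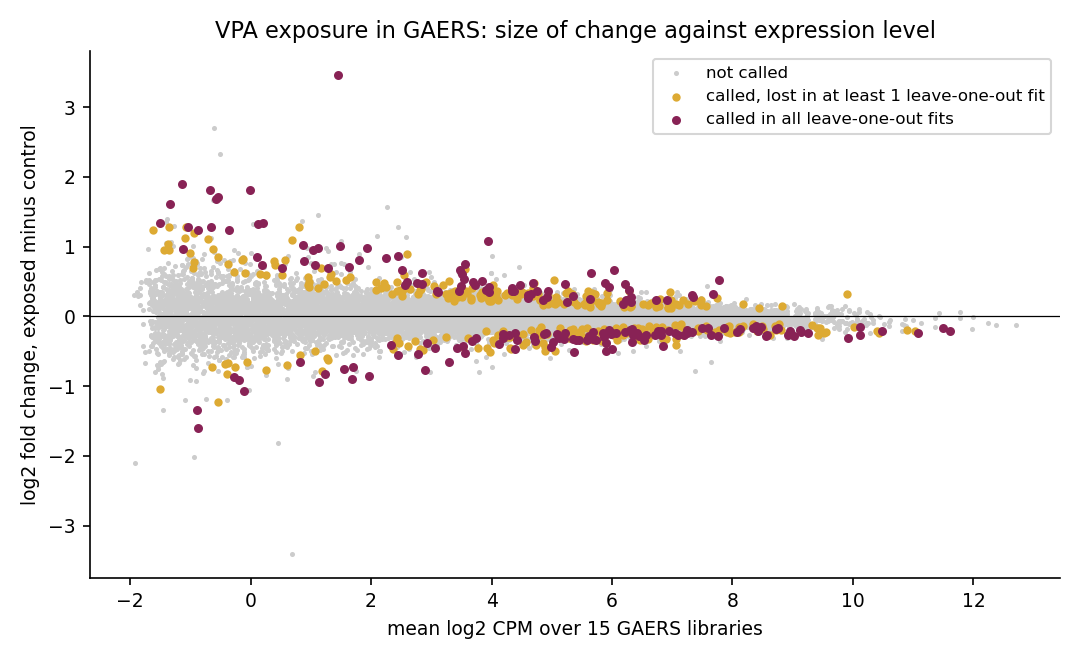
Log2 fold change (exposed minus control, GAERS) against mean log2 CPM, 1 point per tested gene. Called genes at low expression lie mostly above 0, and those at high expression mostly below it. The 195 genes in dark purple were called in each of 15 fits that left out 1 library.

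Among called genes, direction followed expression level. Over all tested genes the median log2 fold change was small, at 0.03 for a mean log2 CPM below 0 and -0.04 at 8 and above. Of the 3093 genes whose mean log2 CPM was 2 to 4, 73 were called higher in exposed pups and 28 lower. For the 5004 genes at 4 to 6 the calls were nearly even, with 78 higher and 82 lower. At 6 to 8, 41 were higher and 74 lower. Of the 720 most abundant genes, at 8 and above, 55 were called (7.64%), and 51 of these 55 were lower. These abundant genes moved little, with a median size of 0.20, while called genes below 0 had a median size of 1.04. The standard error fell over the same range, from a median of 0.24 below 0 to 0.05 at 8 and above, so smaller changes could be called among abundant genes.

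The tilt was also present without the pups that stood apart. Leaving out GAERS VPA 4 and GAERS control 1, the calls at 8 and above were lower in 68 of 77 cases, and 107 of 153 at 2 to 4 were higher. With upper-quartile scaling, 45 of 50 such calls were lower. TMM factors, which correct for the make-up of a library, were 0.985 to 1.002 in controls and 0.992 to 1.026 in exposed pups. Depth also differed between the groups. The part of either in the tilt was not tested.

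**Figure D2:**
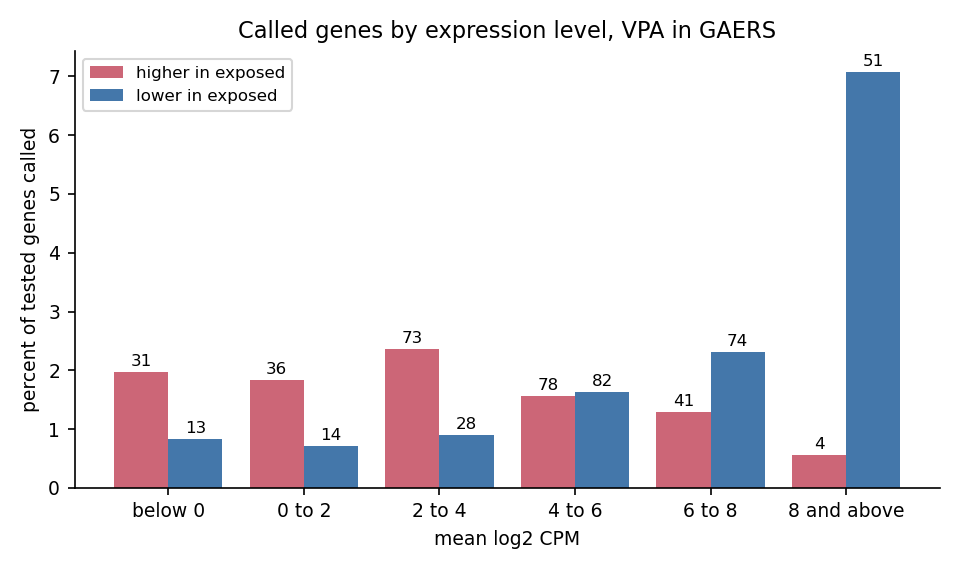
Percent of tested genes called higher or lower in exposed GAERS pups, by mean log2 CPM, with the number of genes above each bar. Higher calls outnumber lower ones up to a log2 CPM of 4, and at 8 and above 51 genes are lower against 4 higher.

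Naming was limited to genes averaging 2 or more in log2 CPM, of which 431 were called, 196 higher and 235 lower. The pair with the highest and the pair with the lowest log2 fold change among these are described by pup.

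ENSRNOG00000038616 doubled in exposed pups and had the smallest p-value of all genes. Controls were at 10.9, 11.1, 10.5, 10.8, 11.3, 12.4, 10.7 and 9.10 CPM in order of replicate number, a narrow band. Exposed pups were at 18.2, 20.04, 27.6, 23.7, 25.6, 21.5 and 24.0 CPM. Every exposed pup lay above every control, and neither GAERS control 1 nor GAERS VPA 4 was an extreme of its group. The means were 10.9 ± 0.924 CPM (SD, n = 8) and 22.95 ± 3.25 CPM (SD, n = 7). This is a 2.11-fold difference, 1.08 ± 0.08 (SE) on the log2 scale with an edgeR adjusted p of 2.50e-06, and it was 1.07 without both pups. The gene was called in each of the 15 fits that left out 1 library, at 1.03 to 1.13.

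ENSRNOG00000032720 was the next highest, with a wider spread. Controls ran from 3.18 CPM over a median of 4.56 to 7.02 CPM in control 3. Exposed pups ran from 4.03 CPM in VPA 1 over a median of 9.02 to 14.3 CPM in VPA 3. The groups overlapped, since VPA 1 lay within the control range. In log2 units the change was 0.90 ± 0.23 (SE), with an edgeR adjusted p of 0.0393. This call was fragile: it was lost in 11 of the 15 fits that left out 1 library (edgeR adjusted p 0.0126 to 0.0801), and without both pups (edgeR adjusted p = 0.0562) at the same size, 0.90.

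ENSRNOG00000013408 fell the most. Exposed pups were at 5.45, 6.54, 4.75, 5.03, 5.40, 4.67 and 7.93 CPM. Among controls, 7 were at 9.21 to 11.2 CPM, and GAERS control 1 was at 5.26 CPM, in the middle of the exposed range. Apart from that pup the groups did not overlap. The log2 fold change was -0.77 ± 0.15 (SE; edgeR adjusted p = 0.0104), and -0.84 without both pups (edgeR adjusted p = 5.08e-04).

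ENSRNOG00000005286 was the second lowest. Controls were at 17.7, 10.7, 10.2, 11.3, 9.87, 11.3, 13.8 and 12.7 CPM, the highest being control 1. Exposed pups were at 6.94, 8.59, 9.06, 5.37, 6.97, 8.18 and 9.10 CPM, the lowest being VPA 4. All exposed pups lay below all controls. The pups that stood apart here widened the gap: the change of -0.65 ± 0.13 (SE) in log2 units, with an edgeR adjusted p of 0.0131, was -0.48 without both (edgeR adjusted p = 0.00675).

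**Figure D3:**
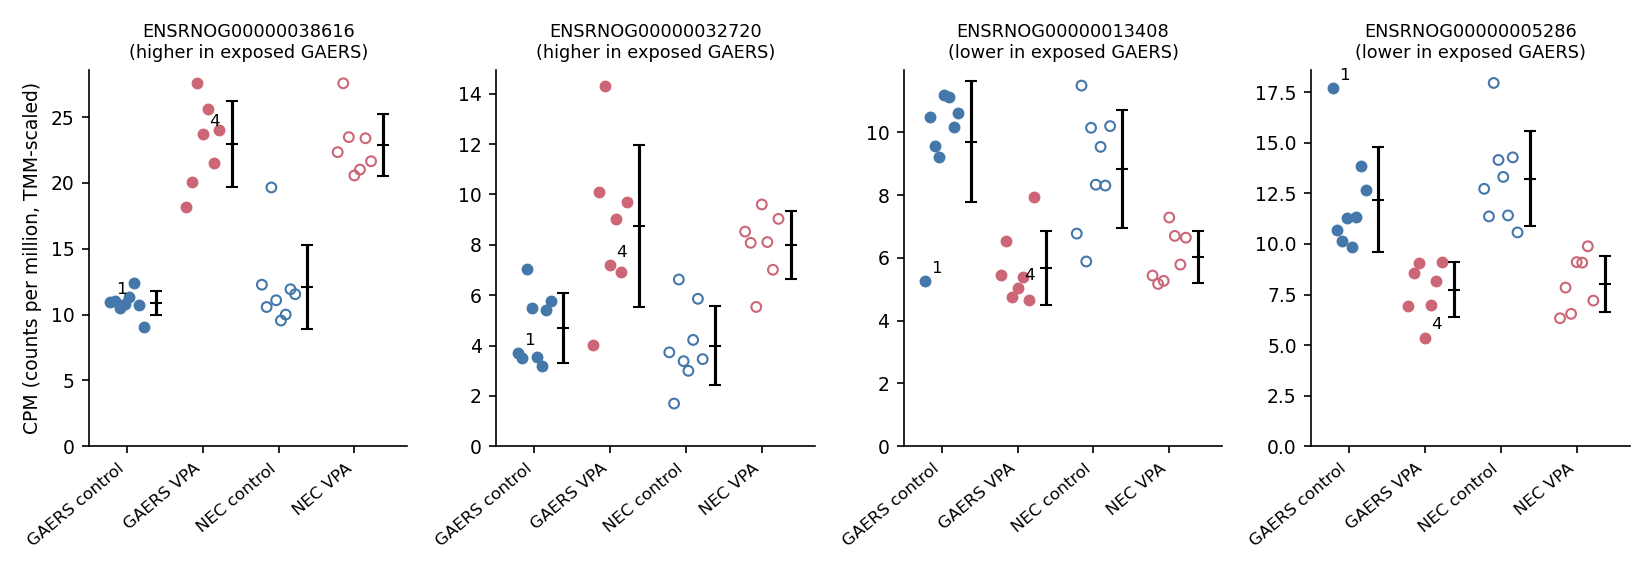
CPM by pup for the 4 named genes, with 1 point per pup and the mean ± SD beside each group. Filled points are GAERS, open points NEC. Numbers mark GAERS control 1 and GAERS VPA 4. Control 1 sits among the exposed pups for ENSRNOG00000013408, at 5.26 CPM, and is the highest GAERS pup for ENSRNOG00000005286, at 17.7 CPM.

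In 174 of all tested genes (1.12%), the 7 exposed and 8 control pups did not overlap. Of these, 156 were among the 525 called genes, 71 higher and 85 lower. Because these genes were called on the same values, their separation is a description. Without GAERS VPA 4 and GAERS control 1, 361 of all tested genes (2.32%) did not overlap. Exposed pups varied more than controls. The median SD of log2 CPM was 0.162 in exposed pups and 0.131 in controls, and it was larger in exposed pups in 64.1% of genes. Without the pups that stood apart, the SD was 0.152 against 0.101, and larger in exposed pups in 75.8% of genes.

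The set of called genes depended on which pups were in the fit. Without GAERS VPA 4, 239 genes were called (1.53%), 105 higher and 134 lower, and 237 of them were among the 525. Without GAERS control 1, 861 were called (5.57%), 438 lower and 423 higher, among them 505 of the 525. Without both, 763 were called (4.91%), 409 higher and 354 lower. They included 413 of the 525, which is 78.7% of that list and 54.1% of the 763, and none changed sign. Leaving out each of the 15 libraries in turn gave 224 to 861 calls, with the lowest count without GAERS VPA 5. In the same range, the count was 254 without control 5, 261 without control 7, 280 without control 4, 328 without control 8 and 338 without control 6.

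**Figure D4:**
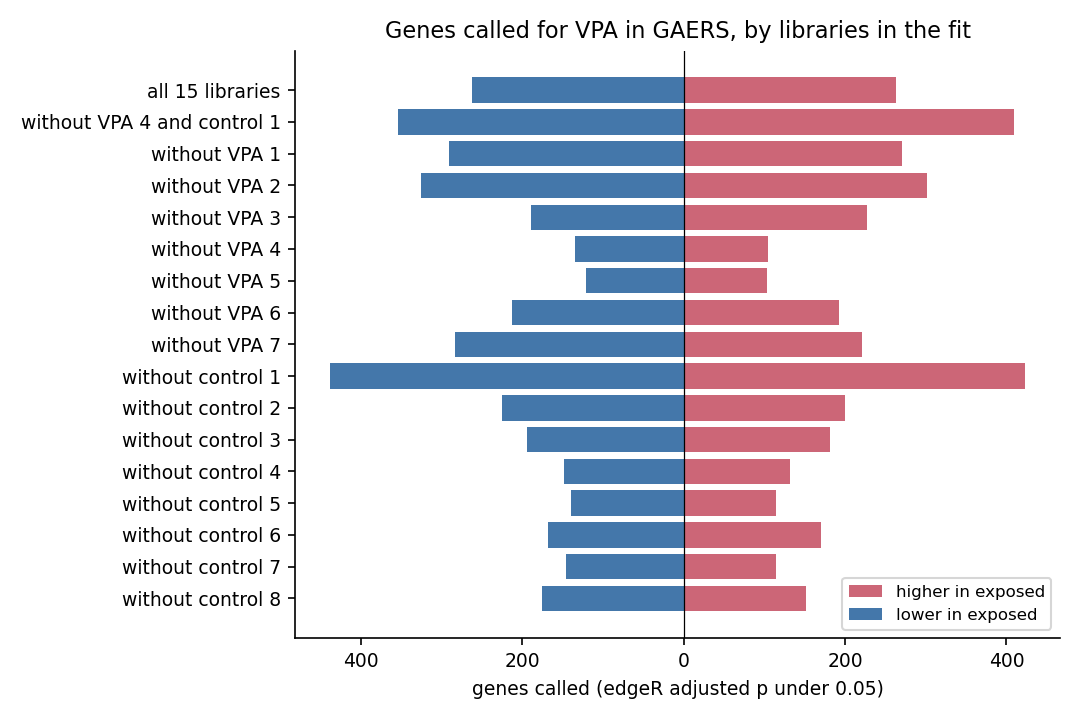
Number of genes called higher (right) and lower (left) in exposed GAERS pups, by the libraries in the fit. The count falls from 525 to 239 without VPA 4 and to 224 without VPA 5, and rises to 861 without control 1.

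The position of both pups among the calls was counted as a description, since these genes were called or lost on the same values. VPA 4 was the most extreme exposed pup in the direction of the change in 142 of the 288 calls lost without it (49.3%), and in 109 of the 237 calls kept (46.0%). Control 1 was the control farthest from the exposed pups in 111 of the 288 (38.5%) and in 67 of the 237 (28.3%). It was the control nearest to them in 47 of the 288 (16.3%) and in 59 of the 237 (24.9%). The same shares were not counted over all tested genes. Among the 112 calls lost without both, VPA 4 was the most extreme exposed pup in 57 and control 1 the farthest control in 53. Control 1 lay far from all other controls in 2117 tested genes (13.6%), with 999 above and 1118 below the rest and a median distance of 0.47 on the log2 scale from their median. The other controls each lay apart in 27 to 98 genes. VPA 4 lay apart in 198, and the other exposed pups each in 28 to 118. A pup was counted as apart in a gene where its gap to the nearest pup of its group, divided by the group's range, exceeded Dixon's 95% critical value. Of the 2117 genes, 54 (2.55%) were among the 525 called genes, against 3.38% called over all tested genes. A lone control far from the rest widens the spread of its group, so this share is partly fixed by how the 2117 were picked.

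The 350 genes called without both pups but not with all 15 libraries were described by the position of both pups. In 310 of them (88.6%), control 1 was the control nearest to the exposed pups, and in 153 (43.7%), VPA 4 was the exposed pup nearest to the controls. The 2117 genes in which control 1 lay apart held 186 of the 350 (53.1%), against 13.6% of all tested genes. These shares are partly fixed by the choice, since the 350 genes were not called while the 2 pups were in the fit. The full list of 763 was chosen without either pup, so their own values played no part in the choice. The controls and exposed pups they are set beside were used to choose it. On the higher genes of the list, control 1 lay 0.31 above the median of the other controls (median over genes, log2). That is within the 0.25 to 0.46 of the 6 exposed pups used. On its lower genes control 1 lay at -0.13, outside their range of -0.32 to -0.20. VPA 4 lay at 0.24 and -0.36.

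Each pup was also placed on genes called without it. The shift of a pup was its median log2 distance from the other controls over genes called higher, minus the same over genes called lower. Control pups 1 to 8 were at 0.23, 0.16, 0.12, 0.07, -0.01, 0.07, -0.05 and 0.03. Exposed pups 1 to 7 were at 0.32, 0.32, 0.44, 0.89, 0.74, 0.53 and 0.41. All 7 exposed pups lay above all 8 controls. The genes were chosen without the pup being placed, but with the other controls from which its shift was measured. That can raise the shift of any pup, exposed or control. VPA 4 and VPA 5 had the largest shifts, and control 1 had the largest among controls. Each pup was placed on its own list of genes, so the shifts are not on 1 common scale. On the lists for VPA 4 and VPA 5, the other exposed pups were at 0.71 and 0.72. On those for VPA 2 and control 1, they were at 0.59 and 0.61. The fits share most of their pups, so no test is attached to these values.

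**Figure D5:**
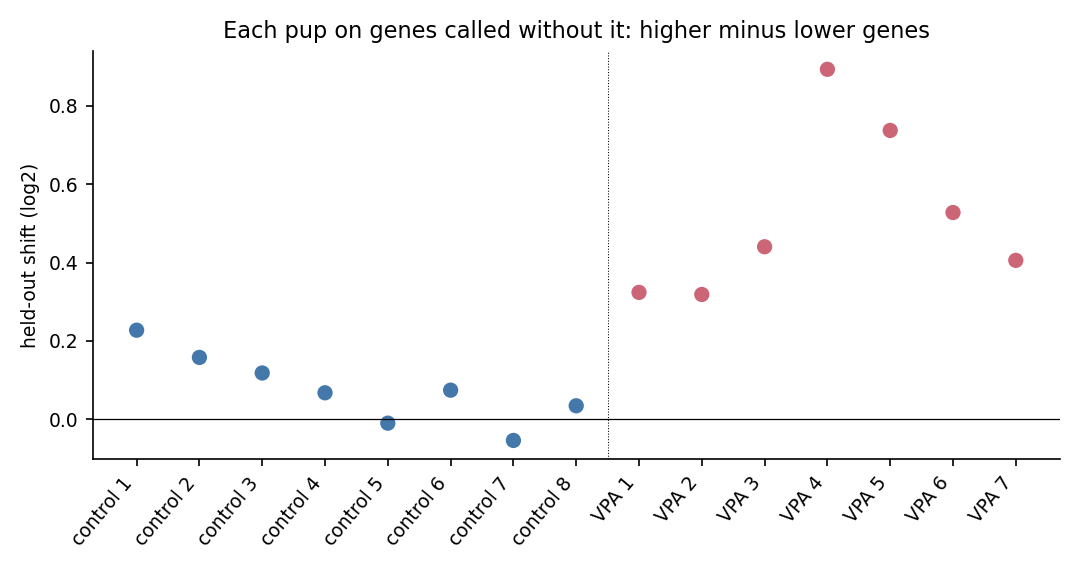
Held-out shift of each GAERS pup (log2), from genes called in a fit that left that pup out. Exposed pups (red) lie at 0.32 to 0.89 and controls (blue) at -0.05 to 0.23.

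A smaller set of 195 genes (1.26%) was called with all 15 libraries and in each of the 15 fits without 1 library. Of these, 83 were higher and 112 lower. All 195 were also called without both pups that stood apart, with upper-quartile scaling, by DESeq2 and by limma-voom, each time with the same sign. These fits reuse the same counts. DESeq2 kept 99.8% of all calls made with the 15 libraries and limma-voom 98.1%, so agreement there was nearly fixed beforehand. With all 30 libraries 181 of the 195 were called, and also 181 with at least 1 CPM in 7 libraries. With total count as a covariate 117 of the 195 were called, 57 higher and 60 lower. The higher genes of this set had a median log2 fold change of 0.49 (1.41-fold) and the lower genes -0.27 (1.21-fold). At a log2 CPM of 8 and above the set held 25 genes, and all 25 were lower. Exposed and control pups did not overlap in 104 of the 195, against 174 of all tested genes (1.12%). The 195 were chosen on the same values, so this count is a description.

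NEC pups took no part in choosing these genes, and the same exposure was compared in them with a separate fit of their 15 libraries. There 3504 of 15452 genes (22.7%) were called. Of the 525 genes called in GAERS, 516 were tested in NEC, and 498 of these (96.5%) had the same sign there, against 72.9% of all tested genes. The shared calls numbered 320, which is 61.0% of the GAERS list and 9.13% of the NEC list, and none was opposite in sign. Genes higher in exposed GAERS had a median log2 fold change of 0.28 in NEC, and lower genes -0.23.

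The genes gained by leaving out both GAERS pups did not share this. Of the 348 tested in NEC, 164 (47.1%) had the same sign there, and 31 (8.91%) were called in NEC, against 22.8% of all genes tested in both strains. This depended on NEC libraries too. Without NEC control 3 and NEC VPA 7, which had the lowest correlations with their own groups, 234 of the 348 (67.2%) had the same sign and 58 (16.7%) were called. Over all tested genes that fit gave 74.3% with the same sign and 25.6% called. The share with the same sign for the 525 genes was 96.5% again.

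The named genes were set beside their values in NEC. ENSRNOG00000038616 went from 12.1 ± 3.20 CPM (SD, n = 8) to 22.9 ± 2.35 CPM (SD, n = 7) in NEC, which is 0.92 ± 0.13 (SE) in log2 units with an edgeR adjusted p of 4.64e-04. ENSRNOG00000032720 went from 3.996 ± 1.58 to 7.98 ± 1.35 CPM (SD, n = 8 and 7), or 0.99 ± 0.21 (SE) in log2 units, with an edgeR adjusted p of 0.00463. ENSRNOG00000013408 fell by 0.55 on the log2 scale in NEC and ENSRNOG00000005286 by 0.73 (edgeR adjusted p = 0.00814 and 0.00128). All 4 moved the same way in both strains. The differences between strains were 0.16 ± 0.16, -0.09 ± 0.32, -0.22 ± 0.20 and 0.07 ± 0.18 (log2, SE, GAERS minus NEC, in the order above), with edgeR adjusted p of 0.739 to 0.943.

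Whether exposure acted differently in GAERS and NEC was tested as an interaction over all 30 libraries. No gene passed by edgeR (0 of 15885, 0%; smallest adjusted p = 0.303), with 1278 genes (8.05%) at an unadjusted p under 0.05. Among the 525 GAERS calls, 61 (11.6%) had an unadjusted p under 0.05. Without GAERS VPA 4 and GAERS control 1 the share over all tested genes was 21.4%. DESeq2 called 1 gene. Without GAERS VPA 4 and GAERS control 1 the same edgeR test called 345 genes (2.17%), 276 of them with the more positive log2 fold change in GAERS. Leaving out NEC control 3 and NEC VPA 7 as well gave 91 genes, 70 with the more positive change in GAERS. Of the 345, 13 were among the 525 GAERS calls and 38 among the 350 genes gained without both pups. The share to set beside these overlaps is the 2.17% called over all tested genes. The 345 and the 350 come from fits without the same 2 pups, so the overlap of 38 is partly fixed by the choice. By edgeR, a difference between strains was thus called only in the fits that left out pups.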

How the data were processed

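The deposited values per rat Ensembl gene are whole numbers, and they were assumed to be raw counts with no normalization. Per the submitters' processing notes, reads were handled with FastQC and STAR 2.5, and the build is Rnor_6.0 (rn6). How reads were assigned to genes, and whether strand was used, is not given in the sources used here. Thus overlapping, antisense or near-identical genes may share reads. A RefSeq table of 47357 genes (assembly GRCr8) had an Ensembl identifier in 0 rows, so 42 gene lists and a sex covariate were not run, and no sequences are shown.

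Groups came from the labels, and replicate numbers follow accession order. R 4.3.3 and edgeR 4.0.16 were used on the 15 GAERS libraries alone: filterByExpr (minimum count 10, minimum total 15), TMM scaling, robust quasi-likelihood fit and F test, adjusted p under 0.05. Standard errors came from the F statistic. CPM used TMM-scaled library sizes, and log2 CPM a prior count of 2. Alternatives used DESeq2 1.42.0, limma 3.58.1 and sva 3.50.0. No 2 libraries of a group agreed within sampling noise (lowest chi-square per degree of freedom 6.06). On simulated data for VPA in GAERS (15463 genes), the test recovered 34% of changes of 1.25-fold, 80% of 1.5-fold and 90% of 2-fold. Each of these sizes had 50 changed genes. Of the 156 calls on the simulated data, 3.85% were false. These shares describe the simulated data only, and the share of false calls among the pups' own data was not tested. Named genes were the 2 most raised and 2 most lowered called genes that averaged 2 or more in log2 CPM. The comparison, lists and rules were chosen with earlier results of these data known. The 195-gene set, the NEC fit without 2 libraries, the fit without 4 libraries, the counts of outlying genes and the held-out shifts were chosen after seeing the data.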

Additional observations from a re-analysis of the deposited data

Results flagged for a closer look

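Dixon's test was applied to 26 groups of values, and 7 held a pup far from its neighbours. Chance gives about 1 in 20 groups, or 1.3 here. The sets reuse the same pups and include genes chosen from these data. GAERS control 1 was found for its median correlation with its group (0.981), for its 2117 outlying genes and for ENSRNOG00000013408 at 5.26 CPM. GAERS VPA 4 was found for its median correlation of 0.984. GAERS control 2 had a TMM factor of 1.002, above the other controls at 0.985 to 0.993. For ENSRNOG00000038616, NEC control 3 was at 19.7 CPM and NEC VPA 2 at 27.6 CPM, each the highest of its group.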

How the results depend on the processing

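The count of 525 genes was 1008 with DESeq2, 995 with limma-voom quality weights, 1980 with 3 surrogate variables and 199 with log2 total count as a covariate, and it ranged from 224 to 861 without 1 library. It was 763 without both pups that stood apart, and stayed within 1.5 times of 525 in the 6 remaining settings (RLE and upper-quartile scaling, no filter, at least 1 CPM in 7 libraries, all 30 libraries, and both pups out). The share of calls that were higher, 50.1%, was 56.7% with upper-quartile scaling and 42.1% with no filter, and ranged from 43.8% to 54.6% without 1 library. No named gene reversed. ENSRNOG00000005286 lost its call with total count as a covariate (log2 fold change -0.56), and ENSRNOG00000032720 in 14 of 25 settings. The interaction count of 0 was 1 with DESeq2, 345 without GAERS VPA 4 and GAERS control 1, and 91 without NEC control 3 and NEC VPA 7 as well. With total count as a covariate, 158 of the 525 genes (30.1%) stayed called, 367 lost their call and 41 were new. Of the 195 genes, 117 were called in that fit. The cause was not tested. Depth and exposure partly coincide, since exposed libraries were shallower. No paired analysis was possible because nothing in the labels ties an exposed pup to a control pup.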
